A study of Homo sapiens with 30 samples.

Results

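HepG2, an established human liver tumour cell line, was transfected with a mimic of miR-512-3p and 24 h later received 10 µM Sorafenib, or DMSO as the vehicle, for 24 h. The comparison described here is that of the 3 Sorafenib libraries (M512_sorafenib) with the 3 DMSO libraries (M512_DMSO) of this transfection, which are 6 of the 30 RNA libraries of the series. The libraries were assigned by their labels, and this drug comparison was taken up because earlier results had shown it to hold the most changes of the series. All 6 cultures carried the mimic, a synthetic duplex delivered with Lipofectamine RNAiMAX, so the comparison gives the response to the drug in its presence and not the effect of the mimic. The same drug comparison was made in cells with a mimic control (MC) and with a mimic of miR-222-5p (M222), 6 libraries each, which serve as reference here. The cells are a single tumour line in culture. The study describes its replicates as independent, while the labels do not say whether they were separate cultures. The p-values measure the spread between these samples.

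Sorafenib is a multikinase inhibitor used in advanced hepatocellular carcinoma. It inhibits RAF kinases and several receptor tyrosine kinases, among them the receptors of VEGF and PDGF. In liver cancer cells it is known to engage the integrated stress response, in which kinases that phosphorylate the translation factor eIF2 slow protein synthesis in general while the transcription factor ATF4 is made, and ATF4 with its partners raises genes of amino acid supply and of cell death. A second known branch, the unfolded protein response of the endoplasmic reticulum (ER), raises chaperones through ATF6 and XBP1. Metallothioneins, small cysteine-rich proteins that bind zinc and copper, are raised by the zinc-sensing factor MTF1 through metal response elements (MREs) in their promoters.

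The mimic carries the sequence of the mature miRNA, shown because all 6 libraries share it. RefSeq (GRCh38.p14) lists the same mature sequence at MIR512-1, chr19:53666729-53666750, and MIR512-2, chr19:53669213-53669234, both on the plus strand. It is printed 5′ to 3′, and the capitals mark the seed, bases 2 to 8, which pairs with messages.
hsa-miR-512-3p: aAGUGCUGucauagcugagguc

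Promoter stretches of 5 genes are shown because their lists gave the clearest contrast between programmes that moved and one that did not. They were taken from RefSeq (GRCh38.p14), end just before the annotated start of the gene and are printed 5′ to 3′ along the gene. The first 3 are metallothionein promoters on the plus strand of chromosome 16, at chr16:56682270-56682469 (MT1X), chr16:56608384-56608583 (MT2A) and chr16:56651686-56651885 (MT1B), and capitals mark each match to the MRE core TGCNCNC on either strand.
MT1X: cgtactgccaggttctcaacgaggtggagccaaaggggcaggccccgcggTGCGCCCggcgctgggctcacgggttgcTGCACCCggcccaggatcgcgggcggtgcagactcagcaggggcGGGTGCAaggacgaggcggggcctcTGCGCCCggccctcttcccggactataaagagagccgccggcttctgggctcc
MT2A: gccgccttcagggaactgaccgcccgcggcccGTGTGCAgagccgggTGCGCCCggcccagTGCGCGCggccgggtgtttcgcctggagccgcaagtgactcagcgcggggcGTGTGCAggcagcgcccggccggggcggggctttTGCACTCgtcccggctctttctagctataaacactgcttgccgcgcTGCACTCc
MT1B: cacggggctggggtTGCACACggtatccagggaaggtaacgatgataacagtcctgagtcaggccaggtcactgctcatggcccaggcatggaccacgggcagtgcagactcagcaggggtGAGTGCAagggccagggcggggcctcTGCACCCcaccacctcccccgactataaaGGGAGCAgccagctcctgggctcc
For ATF3, an early target of the integrated stress response, the 177 bases at chr1:212565157-212565333 on the plus strand hold 1 match to TGATGNAA, the core of the element bound by ATF4 with a C/EBP partner (CARE).
ATF3: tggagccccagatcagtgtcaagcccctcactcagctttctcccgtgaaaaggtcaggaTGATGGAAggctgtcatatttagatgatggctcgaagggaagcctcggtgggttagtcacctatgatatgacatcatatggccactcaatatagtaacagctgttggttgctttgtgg
For HSPA5, the main ER chaperone, the 200 bases at chr9:125241383-125241582 on the minus strand hold 1 match to the ER stress element (ERSE), whose parts CCAAT and CCACG lie 9 bases apart.
HSPA5: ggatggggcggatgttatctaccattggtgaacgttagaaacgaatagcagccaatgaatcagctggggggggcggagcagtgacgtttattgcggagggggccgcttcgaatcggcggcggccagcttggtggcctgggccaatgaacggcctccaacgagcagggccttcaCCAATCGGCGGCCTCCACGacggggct

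Over the 250 bases before the start, at least 4 MRE matches were found in 4 of the 4 metallothionein promoters listed and in 1.70% of all 27305 promoters. The share was 2.005% of genes tested, 2.13% of genes called higher and 2.42% of those called lower. MT1H, which was not called, had the most of these 4 (8 matches), and the other metallothioneins were not searched. At least 1 MRE match was found in 48.4% of all promoters and 56.4% of genes tested, so a single match is common. The ERSE was found in 6 of the 21 listed promoters of ER chaperone genes (HSPA5, HSP90B1, CALR, CANX, CRELD2 and XBP1) and in 0.0806% of all promoters. The ERSE share was 0.144% of genes tested and 0% of those called higher or lower. CARE was found in 1 of 16 promoters of the integrated stress response list (ATF3), 2 of 14 of amino acid supply, 2 of 16 of tRNA synthetases and 3.19% of all promoters. It was found in 1.31% of genes tested, 1.95% of those called higher and 2.20% of those called lower. A match describes these letters only.

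The 6 libraries held 5720660 to 8574340 counts and between 13656 and 16582 genes with a count. Levels are in CPM, counts scaled to a common library total. Where a gene had no count its level could still reach 0.350 to 0.524 CPM, the value of 3 counts, which covers counting error only. Replicate 3 of M512_sorafenib stood apart from its group. Genes of mitochondrial DNA held 17.5% of its counts against 24.2% in both other Sorafenib libraries and 19.7% to 20.2% in DMSO, its TMM factor was 0.981 against 0.905 and 0.841, and it had the highest total. Over the genes called without it, its median rise was 0.96 (log2) against 1.20 in the other libraries of the group. Its median fall was -0.85 against -1.35. For replicate 1 the rises were 1.07 against 1.22 and the falls -1.05 against -1.34, and for replicate 2 they were 1.05 against 1.34 and -0.91 against -1.26. Each library was smaller than those that chose the genes, which that choice favours, and replicate 3 had the smallest falls. Results that rest on it are given with and without it. Replicates differed by more than sampling noise, since chi-square divided by its degrees of freedom was 12.8 to 66.2 over genes in the 6 pairs. All 13 hepatocyte markers were tested, while 2 of 8 fibroblast, 3 of 8 immune and 0 of 6 endothelial markers passed the filter on low counts. PTPRC had 1 count over the 6 libraries, and CD3E, MS4A1, VWF, CDH5, DCN and COL1A2 had 0, while CD14 had 29 and PECAM1 28. The summed level of the immune list was 251 to 315 CPM in DMSO and 106 to 190.3 in Sorafenib, nearly all of it LYZ (lysozyme), which fell (log2 fold change -0.97). The other tested immune markers, CD68 and CD3D, went the other way (up to 1.86) and were not called. The part of other cells in the results was not tested.

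Sorafenib raised most genes of the integrated stress response and most metallothioneins, and lowered some genes of lipid synthesis and liver function. Of 13244 genes tested, 1319 (9.96%) were called by the quasi-likelihood F test of edgeR at a p adjusted by Benjamini and Hochberg (BH) under 0.05, 707 higher (5.34%) and 612 lower (4.62%). The 18 libraries of 24 h entered the fit. Called rises had a median of 1.26 (log2) and called falls of -1.23, with a median standard error (SE) of 0.29. Changes past 3 (log2) in size numbered 60 higher and 36 lower. Groups did not overlap for 1286 of the called genes, while 30% of all genes tested had groups that did not overlap. The share called rose with abundance, from 1.07% of genes under 5 CPM to 21.4% of those over 100 CPM. Counts of called genes in the lists below are to be read beside these shares.

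The scaling decided part of the directions. TMM sets the typical gene to no change, while scaling to total counts keeps each library's sum fixed. Between the scalings the log2 fold changes moved by -0.19, and the median over all genes was -0.03 under TMM and -0.22 under total counts. Total counts gave 1538 calls (11.6%), of which 462 were higher and 1076 lower, so the share higher among called genes went from 53.6% to 30.04%. All 612 genes lower under TMM were lower under total counts too. Of the 707 higher genes, 462 were higher on both scales and 245 under TMM only, with a median rise of 0.86. A further 464 genes were lower under total counts only. With totals of nuclear genes alone, an alternative added after seeing the data, the share higher was 33.9%. Below, a direction holds on both scales unless a sentence says otherwise, and log2 fold changes and levels (CPM) are on the TMM scale.

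Single libraries moved the count of calls. It was 800, 761 and 786 without DMSO replicate 1, 2 and 3, and 987, 1091 and 1234 without Sorafenib replicate 1, 2 and 3. Without Sorafenib replicate 3, 649 genes were higher and 583 lower, and 953 of the 1319 kept their call. In all 6 of these fits, 531 genes kept it (315 higher, 216 lower), and 0 of the 1319 changed sign in any. As 1286 of the 1319 had groups that did not overlap, the unchanged sign was close to set by the choice of genes.

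**Figure D1:**
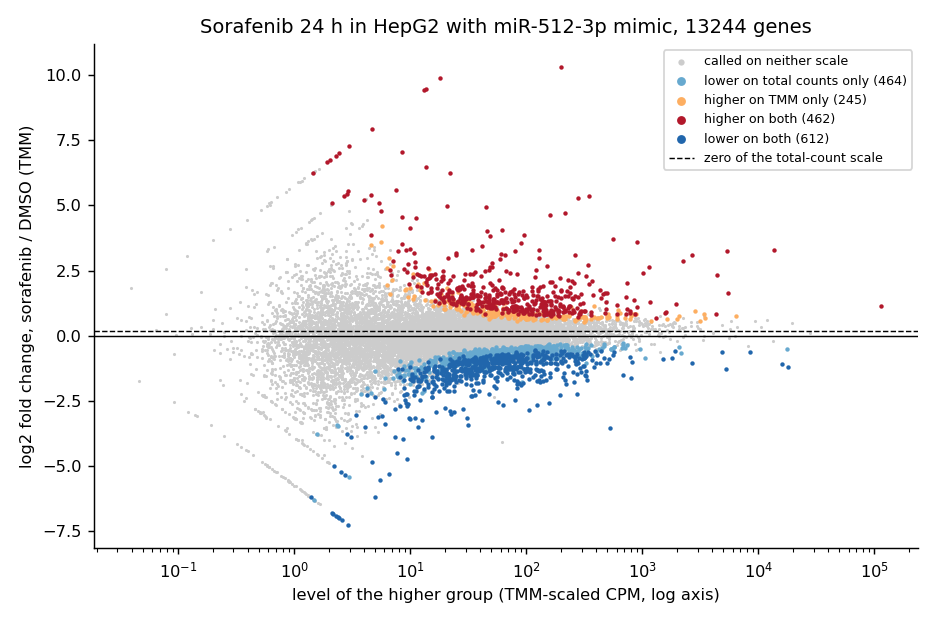
Log2 fold change of Sorafenib over DMSO under TMM (vertical axis) against the level of the higher group in TMM-scaled CPM (horizontal log axis), 1 point for each of 13244 genes. Red and blue points are called on both scales (462 higher, 612 lower), orange points are higher under TMM only (245) and light blue points lower under total counts only (464). The dashed line is the zero of the total-count scale and lies above the TMM zero, so points near both lines change their call with the scaling.

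Metallothioneins had the highest median of the lists tested. Of 9 metallothioneins tested, 8 rose and 0 fell, with a median log2 fold change of 3.26 (3.07 under total counts), where all genes had -0.03. MT2A (ENSG00000125148, chromosome 16, 56608584 to 56609497) was at 1512, 1286 and 1370 CPM in DMSO and 10891, 14468 and 15637 CPM in Sorafenib (log2 fold change 3.30, SE 0.38, BH-adjusted p in edgeR 4.78e-06). MT1X (chromosome 16, 56682470 to 56684196) was at 90.1, 65.5 and 68.2 CPM in DMSO and 930.1, 891 and 860.5 CPM in Sorafenib (3.58, SE 0.39). The groups were far apart for both genes, and Sorafenib replicate 3 gave the highest MT2A.

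MT1B had 0, 3 and 0 counts in DMSO and 199.6, 125 and 268 CPM in Sorafenib. The Sorafenib mean, not each library, was at least 440-fold higher against 3 counts in the shallowest DMSO library. MT1M went from 5.94, 7.92 and 11.2 CPM to 193, 229 and 231 CPM (4.70, SE 0.63). MT1G (3.26), MT1F (2.42), MT1E (2.32) and MT1A (1.29) rose too. MT1H, the member that was not called, was at 2.91, 1.35 and 0.554 CPM in DMSO and 7.15, 6.71 and 14.3 CPM in Sorafenib, with groups that did not overlap (adjusted p 0.15, edgeR). These genes are close copies, so reads may be split among them and values of single members are uncertain. Together they held 0.325% ± 0.0259 of the counts in DMSO and 2.36% ± 0.493 in Sorafenib (SD, n = 3).

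Of the 17 zinc transporters tested, 1 rose and 3 fell (23.5% called, beside 9.96% among all genes). The riser was SLC30A1, the exporter that carries zinc out of the cell and a known target of MTF1, at 24.1, 26 and 36 CPM in DMSO and 89.6, 61.5 and 132 CPM in Sorafenib (1.72, SE 0.29, BH-adjusted p in edgeR 0.000351). The importer SLC39A14 (-1.17) fell, with SLC39A13 (-1.45) and SLC39A11 (-1.21). With 1 library left out, 0 to 4 zinc transporters fell. The calls of SLC39A14 and SLC39A13 were each lost in 5 of the 6 fits without 1 library.

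Targets of ATF4 rose together. In the integrated stress response list 14 of 17 genes tested rose and 0 fell, with a median of 2.09 (1.88 under total counts), and 14 were called higher under total counts too. ATF3 (chromosome 1, 212565334 to 212620777), a stress-induced repressor, was at 3.39, 2.69 and 5.13 CPM in DMSO and 59.1, 50.2 and 77.7 CPM in Sorafenib (4.05, SE 0.56, BH-adjusted p in edgeR 3.94e-05). The bases printed above precede its annotated start, and tags near the 3′ end do not show which start its messages used. PPP1R15A (GADD34), the phosphatase subunit that reverses eIF2 phosphorylation, went from 5.33, 8.97 and 5.40 CPM to 122, 78.6 and 86.8 CPM (3.87, SE 0.41). The libraries of the treatments were wide apart for both genes.

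DDIT3 (CHOP), which promotes cell death under lasting stress, rose from 14.9, 16.4 and 10.3 CPM to 65.5, 65.6 and 87.9 CPM (2.40, SE 0.39). GDF15, a secreted stress hormone, was the most abundant of the list, at 339.6, 289 and 291 CPM in DMSO and 2482, 2140 and 2095 CPM in Sorafenib (2.87, SE 0.31). NUPR1 (2.71), DDIT4 (3.24), which restrains mTORC1, SESN2 (2.09), an amino acid sensor, and TRIB3 (1.85), a pseudokinase that dampens the response, rose as well. ATF4 itself rose less, from 305, 279.7 and 216 CPM to 390.4, 719.9 and 711 CPM (1.18, SE 0.24), and is known to be controlled mostly at translation, which these data do not show. FGF21 and CHAC1 had too few counts to be tested.

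Of 19 genes of amino acid transport and synthesis, 8 rose and 1 fell under TMM, and 6 and 2 under total counts. ASNS, asparagine synthetase, was at 22.9, 19.4 and 21.8 CPM in DMSO and 100.3, 118 and 148 CPM in Sorafenib (2.51, SE 0.35). SLC7A11, the cystine importer, went from 16.5, 15.1 and 17.2 CPM to 99.3, 104 and 180.2 CPM (2.98, SE 0.41), with Sorafenib replicate 3 highest. Its partner SLC3A2 (1.65), MTHFD2 (1.72) and MTHFD1L (1.51) of mitochondrial folate metabolism and SLC1A4 (0.96) rose. PSPH (0.74) and SLC1A5 (0.73) were called under TMM only and lost their call in 3 and 5 of 6 fits without 1 library. ALDH18A1, the first enzyme of proline synthesis, fell (-1.26), a call lost in 5 of these fits.

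Of 20 cytosolic tRNA synthetases, 7 rose under TMM and 4 under total counts, and 0 fell on either scale. GARS1 for glycine led them, at 75.9, 61.4 and 67.5 CPM in DMSO and 210.4, 206 and 259 CPM in Sorafenib (1.72, SE 0.21, BH-adjusted p in edgeR 1.13e-05). TARS1 (1.44), SARS1 (1.40) and AARS1 (0.89) were called on both scales, while YARS1 (0.81), CARS1 (0.66) and KARS1 (0.54) were called under TMM only and lost their call in 3, 6 and 4 of 6 fits without 1 library.

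ER chaperones did not move with these genes. Of 22 genes of ER folding and the unfolded protein response, 1 rose and 0 fell under TMM, and the median was -0.01. That was 4.55% called, beside 9.96% among all genes. HSPA5 was at 1446, 1364 and 1238 CPM in DMSO and 1376, 1760 and 1203 CPM in Sorafenib, with overlapping groups (log2 fold change 0.10, SE 0.18, BH-adjusted p in edgeR 0.791). HSP90B1 (-0.32, adjusted p 0.299, edgeR) and XBP1 (-0.34, adjusted p 0.255, edgeR) were not called. CALR was at 1066, 920.4 and 857 CPM in DMSO and 753, 704 and 547 CPM in Sorafenib (-0.51, adjusted p 0.0854 under TMM and 0.013 under total counts, edgeR), so it was called lower on the total-count scale alone. The 6 members with an ERSE match (HSPA5, HSP90B1, CALR, CANX, CRELD2 and XBP1) had log2 fold changes between -0.51 and 0.10. The riser was ERN1, the sensor kinase IRE1, from 8.85, 9.57 and 16.8 CPM to 47.1, 37 and 43 CPM (1.85, SE 0.42).

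Early response and stress transcription factors rose. Of 13 immediate early genes tested, 7 rose under TMM and 6 under total counts, and 0 fell. JUN was at 45.7, 29.9 and 52.9 CPM in DMSO and 638, 651 and 402 CPM in Sorafenib (3.72, SE 0.47), and JUNB went from 7.64, 4.34 and 7.48 CPM to 197, 98.9 and 188 CPM (4.63, SE 0.52). Both encode AP-1 subunits, and both had groups far apart. DUSP1 (3.28), a phosphatase of stress kinases, KLF10 (2.65), IER5 (1.69) and KLF6 (1.56) rose, and JUND (1.10) was called under TMM only, with overlapping groups and a call lost in 4 of 6 fits without 1 library. EGR1, a direct readout of ERK signalling, was not called and had the opposite sign (-1.51, SE 0.87, adjusted p 0.301, edgeR). MYC varied within the Sorafenib group, at 58.3, 8.63 and 93.3 CPM against 21.8, 32.3 and 43.7 CPM in DMSO (0.72, adjusted p 0.479, edgeR). FOS, FOSB, KLF2 and KLF4 had too few counts.

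Outside these lists, the following genes were among the 12 largest rises of the naming rule. NR1D1 (REV-ERBα, chromosome 17, 40092793 to 40100589), a nuclear receptor that represses clock genes, was at 1.21, 1.79 and 1.39 CPM in DMSO and 34.8, 43.5 and 57.9 CPM in Sorafenib (4.95, SE 0.53, BH-adjusted p in edgeR 3.06e-06). BHLHE40 (DEC1), another clock repressor, went from 3.39, 2.09 and 3.05 CPM to 48.7, 47.7 and 41.7 CPM (4.0, SE 0.60). GADD45B, a growth arrest and DNA damage gene, rose from 10.9, 6.28 and 4.43 CPM to 325, 236 and 282 CPM (5.27, SE 0.73). SLC44A2, a choline transporter, rose from 1.82, 5.08 and 3.33 CPM to 48.7, 43.7 and 52.5 CPM (3.83, SE 0.52). The naming rule took only rises whose groups did not overlap, so the separation of these genes was set by that choice.

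Of 21 p53 targets tested, 3 rose and 0 fell, beside 9.96% called among all genes, and nothing is read from the counts of this list, the BCL2 family or the heat shock genes. GADD45A went from 37.3, 27.5 and 27.3 CPM to 308, 262 and 215 CPM (3.09, SE 0.37), CDKN1A (p21), the cyclin-dependent kinase inhibitor, rose by 1.51 (SE 0.20) and PLK2 by 2.49. Of 13 BCL2 family genes, 1 fell under total counts alone, and 2 rose on both scales. Both encode BH3-only proteins that promote apoptosis: BBC3 (PUMA), at 79.5, 61.9 and 55.7 CPM in DMSO and 339, 348 and 287 CPM in Sorafenib (2.30, SE 0.28), and BCL2L11 (BIM, 1.33), whose call was lost in 4 of 6 fits without 1 library.

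Of 23 NRF2 targets, 4 rose and 0 fell (17.4% called, beside 9.96% among all genes). They were both subunits of glutamate-cysteine ligase, GCLM (2.14, SE 0.31) and GCLC (1.32), with TXNRD1 (0.99) and OSGIN1 (1.47). The classical targets NQO1 (-0.38, adjusted p 0.207, edgeR) and HMOX1 (0.92, adjusted p 0.0905, edgeR) were not called. Of 21 heat shock genes, 2 rose and 1 fell. ZFAND2A rose from 57.8, 74 and 80.5 CPM to 193, 153 and 193 CPM (1.35, SE 0.23), FKBP4 (0.63) was called under TMM only, and the co-chaperone DNAJA1 fell (-0.79). The calls of FKBP4 and DNAJA1 were lost in 5 and 2 of 6 fits without 1 library, and without Sorafenib replicate 3 the heat shock count was 3 higher and 3 lower. Of 15 genes of iron handling and ferroptosis, 3 rose and 2 fell under TMM (33.3% called, beside 9.96% among all genes). HAMP, the iron hormone hepcidin, was at 69.9, 82.1 and 105 CPM in DMSO and 339, 414 and 348 CPM in Sorafenib (2.10, SE 0.23), while NCOA4 (-0.83), the receptor for ferritin breakdown, fell. Without Sorafenib replicate 3 this list had 1 higher and 1 lower.

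**Figure D2:**
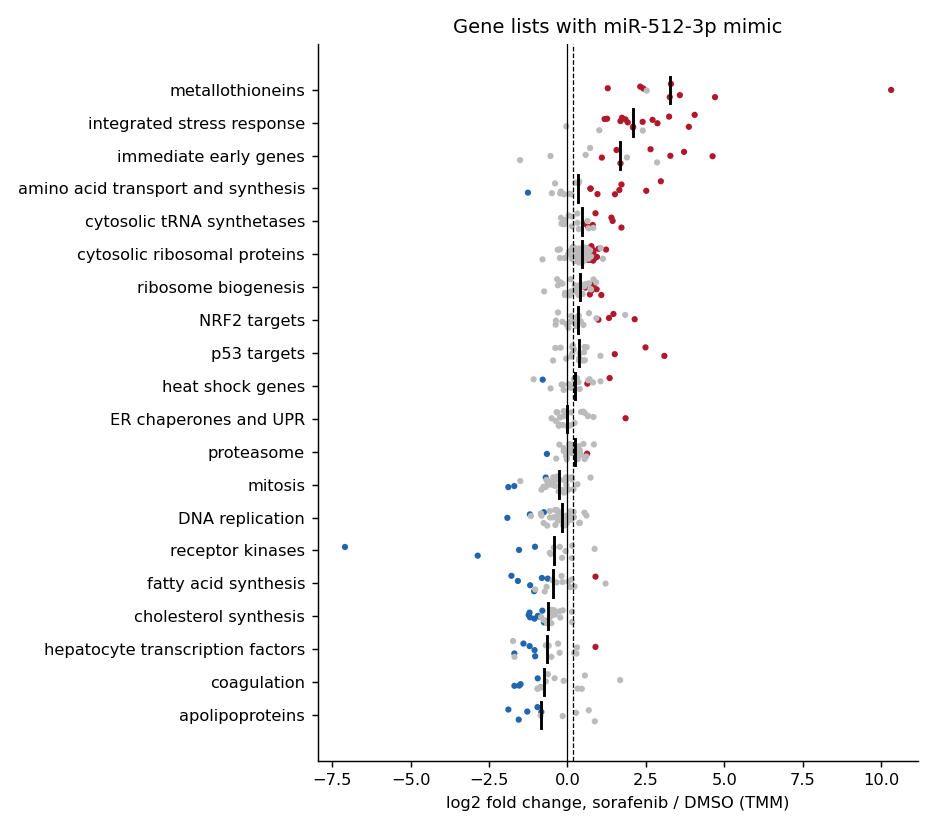
Log2 fold change of Sorafenib over DMSO (TMM) for each tested member of 20 gene lists, 1 point a gene, red where called higher, blue where called lower and grey where not called. Black bars are list medians, the solid line is zero under TMM and the dashed line zero under total counts. Metallothioneins (median 3.26), the integrated stress response (2.09) and immediate early genes (1.69) lie to the right, ER chaperones lie around zero (-0.01) and apolipoproteins (-0.84) lie to the left.

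Transcripts of mitochondrial DNA moved in different directions. The large ribosomal RNA MT-RNR2 (mitochondrial genome, 1671 to 3229) held 5.17%, 6.01% and 4.71% of the counts in DMSO and 11.2%, 11.5% and 7.97% in Sorafenib (log2 fold change 1.16, SE 0.21, BH-adjusted p in edgeR 0.000763). The 13 mitochondrial mRNAs together held 13.04% ± 0.638 in DMSO and 9.66% ± 1.19 in Sorafenib (SD, n = 3), with groups that did not overlap. MT-CO2, a subunit of complex IV, was at 17628, 16148 and 19985 CPM in DMSO and 6900, 9666 and 6843 CPM in Sorafenib (-1.20, SE 0.23), and MT-ND3 fell by 1.09 on the log2 scale. MT-CO1, which encodes the catalytic subunit of complex IV, rose from 1795, 1657 and 1869 CPM to 5828, 6254 and 4341 CPM (1.63, SE 0.22). The other 10 mRNAs were not called under TMM, and MT-CO3 was called lower under total counts alone.

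Of 16 mitochondrial tRNA genes tested, 3 rose and 2 fell. MT-TV (1602 to 1670), which adjoins MT-RNR2, was at 9.70, 9.72 and 5.82 CPM in DMSO and 346, 384 and 322 CPM in Sorafenib (5.38, SE 0.54). MT-TL1 (3230 to 3304), on the other side of MT-RNR2, went from 395, 287 and 265 CPM to 4028, 2850 and 1166 CPM (3.09, SE 0.48), with replicate 3 lowest of the Sorafenib group. MT-TY fell from 44, 25.1 and 15.7 CPM to 6.18, 2.49 and 3.57 CPM (-2.80, SE 0.64). Among nuclear genes of short RNAs, RNU5B-1, a U5 spliceosomal RNA, was at 0, 0 and 0.832 CPM in DMSO and 18.4, 22 and 25.4 CPM in Sorafenib (6.24, SE 0.85), and RNU5F-1 at 0.727, 0.897 and 0.277 CPM and 26.1, 20.5 and 15.8 CPM (5.00, SE 0.66). Transfer and small nuclear RNAs lack the poly(A) tail of messages on which these libraries are primed. Adjoining mitochondrial RNAs, MT-RNR2 among them, are cut from 1 precursor, so the values of all these RNAs are uncertain. Of 79 nuclear genes of the respiratory chain, 2 rose and 3 fell under TMM (6.33% called, beside 9.96% among all genes).

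**Figure D3:**
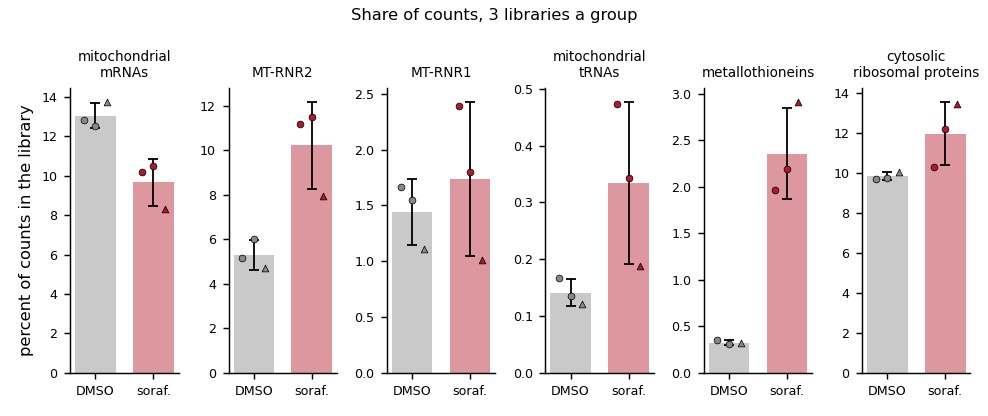
Percent of each library's counts held by mitochondrial mRNAs, MT-RNR2, MT-RNR1, mitochondrial tRNAs, metallothioneins and cytosolic ribosomal protein genes, in 3 DMSO (grey) and 3 Sorafenib (red) libraries. Bars are means, error bars the SD of 3 libraries, points the libraries, and triangles replicate 3. MT-RNR2 went from 5.30% to 10.2% while mitochondrial mRNAs went from 13.04% to 9.66%, and replicate 3 of Sorafenib was lowest of its group in all 4 mitochondrial panels and highest for metallothioneins and ribosomal proteins.

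The call on the translation apparatus turned on the scaling. Of 83 cytosolic ribosomal protein genes tested, 16 rose under TMM and 4 under total counts, and 0 fell on either. The list's median was 0.46 under TMM and 0.27 under total counts, and 78 of 83 had a positive log2 fold change under TMM. Its share of counts was 9.70%, 9.72% and 10.0% in DMSO and 10.3%, 12.2% and 13.4% in Sorafenib. RPL12 was called on both scales, at 513, 458 and 493 CPM in DMSO and 730.0, 929.9 and 933 CPM in Sorafenib (0.82, SE 0.18), as was RPS24 (0.82), while RPS12 (0.74) and RPL26 (0.94) were called under TMM only. The calls of RPS12 and RPL26 were lost in 4 and 5 of 6 fits without 1 library. Ribosomal protein genes have many processed copies in the genome, so their reads may be shared. In ribosome biogenesis 7 of 34 rose under TMM, and under total counts 1 rose and 1 fell. The TMM count was 1 without DMSO replicate 1, 2 without DMSO replicate 2 or 3, and 12 with DESeq2, and that of the ribosomal proteins was 5 to 28 with 1 library left out and 29 with DESeq2. In the proteasome 1 of 34 rose and 1 fell under TMM (5.88% called, beside 9.96% among all genes).

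Liver-specific transcripts fell in part. Of the 13 hepatocyte markers, 4 fell and 0 rose, with a median of -0.45, and 1 to 3 fell with 1 library left out. That was 30.8% called, beside 9.96% among all genes and 21.4% of those over 100 CPM. APOB, the protein of very-low-density lipoprotein, was at 5145, 5872 and 4727 CPM in DMSO and 1983, 3098 and 1403 CPM in Sorafenib (-1.28, SE 0.26). ALB (albumin) went from 4569, 5023 and 5023 CPM to 3204, 2440 and 3851 CPM (-0.62, SE 0.18, BH-adjusted p in edgeR 0.0323), AFP (α-fetoprotein) fell by 1.06 and AHSG by 0.58. Groups did not overlap for these 4, but the calls of ALB and AHSG were each lost in 5 and that of AFP in 3 of 6 fits without 1 library. SERPINA1 (0.19), APOA1 (0.27), FGB (0.32) and the keratins KRT8 (0.56) and KRT18 (0.52) were not called. In such bulk samples fewer cells of a kind and less RNA in each cell cannot be told apart.

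Other liver genes are named here because the naming rule took the largest falls, the largest losses of share and the called members of lists. SERPINA6, the corticosteroid-binding globulin, was at 177, 143 and 148 CPM in DMSO and 26.3, 29.3 and 21.6 CPM in Sorafenib (-2.60, SE 0.21, BH-adjusted p in edgeR 6.69e-08). SELENOP, the plasma carrier of selenium, went from 648, 832 and 939 CPM to 325, 185 and 275 CPM (-1.62, SE 0.23). AGXT, a peroxisomal enzyme of glyoxylate breakdown, fell from 20.7, 22.3 and 17.2 CPM to 2.90, 3.45 and 2.38 CPM (-2.79, SE 0.57). FABP1, the fatty acid binding protein of liver (-1.69), and SULT2A1, a steroid sulfotransferase (-1.81), fell. DHRS2 (-0.61) and PEG10 (-0.84) were among the largest losses of share, and lost their call in 4 and 2 of 6 fits without 1 library. The highest Sorafenib library was below the lowest DMSO library for every gene of this paragraph so far. The rule for the largest falls required this of the genes it named. In the list of complement and acute phase proteins, also secreted by liver, 2 of 16 fell and 0 rose, with a median of 0.07, and without Sorafenib replicate 3 none of them fell (0 called by edgeR). The share called was 12.5%, beside 9.96% among all genes.

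Of 10 apolipoprotein and lipoprotein assembly genes tested, 5 fell and 0 rose (50% called, beside 9.96% among all genes). APOM went from 134, 129 and 140.0 CPM to 49.6, 47.5 and 40.5 CPM (-1.55, SE 0.19), followed by APOB, APOA5 (-1.88), MTTP (-0.95), which loads lipid onto APOB, and APOC3 (-0.83). For APOM the log2 fold change was -0.27 in MC, not called, and -0.79 in M222, called. Of 16 coagulation genes, 5 fell and 0 rose (31.25% called, beside 9.96% among all genes). SERPINF2, the inhibitor of plasmin, led them (-1.54, SE 0.21). FGA (-0.84) and F7 (-1.49) lost their call in 5 and 6 of 6 fits without 1 library, and APOA5 and APOC3 in 4 and 5. With 1 library left out, 3 to 5 apolipoprotein genes and 1 to 4 coagulation genes fell. The coagulation count was 1 without DMSO replicate 1 or Sorafenib replicate 1 and 2 without DMSO replicate 2 or 3.

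Of 16 hepatocyte transcription factors tested, 5 fell and 1 rose on both scales (37.5% called, beside 9.96% among all genes under TMM). HNF4A, the nuclear receptor that maintains hepatocyte identity, was at 249.7, 248 and 254 CPM in DMSO and 111, 88.6 and 84.8 CPM in Sorafenib (-1.40, SE 0.22, BH-adjusted p in edgeR 0.000145). PPARA (-1.69), which drives fatty acid oxidation, the bile acid receptor NR1H4 (FXR, -1.05), its target NR0B2 (SHP, -1.20) and PROX1 (-1.03) fell, and the call of PROX1 was lost in 4 of 6 fits without 1 library. FOXA2, a pioneer factor, rose from 107, 115 and 110.5 CPM to 249, 183 and 187 CPM (0.89, SE 0.20). Of 18 drug metabolism genes tested, 2 rose and 3 fell (27.8% called, beside 9.96% among all genes). AHR, the receptor for aromatic ligands, was among the rises (1.13, SE 0.23).

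Called genes of sterol synthesis all fell, though most members were not called. Of 24 cholesterol genes, 9 fell under TMM and 12 under total counts, and 0 rose, with a median of -0.61. With 1 library left out, 5 to 8 fell under TMM. Calls under TMM were 37.5% of the list, beside 9.96% among all genes. HMGCS1, which makes the HMG-CoA that enters sterol synthesis, was at 223, 226 and 249 CPM in DMSO and 119.6, 145 and 137 CPM in Sorafenib, with groups that did not overlap (-0.80, SE 0.17). MVK, mevalonate kinase, fell too (-1.19), a call lost in 2 of 6 fits without 1 library. Of 19 genes of fatty acid and triglyceride synthesis, 6 fell and 1 rose under TMM (36.8% called), and 8 and 0 under total counts. With 1 library left out, 2 to 6 of them fell, fewest without Sorafenib replicate 1 (2) and DMSO replicate 3 (3). GPAM, the first step of triglyceride synthesis (-1.58, SE 0.25), and SCD, the Δ9-desaturase (-1.06), fell, and LPIN1 (0.89) was the rise seen under TMM only, with overlapping groups and a call lost in 5 of 6 fits without 1 library.

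Cell cycle genes moved little as lists. Of 36 mitosis genes 3 fell under TMM and 6 under total counts, with a median of -0.26, and of 44 replication genes 3 and 7 fell, with a median of -0.18. Among all 13244 genes 612 (4.62%) fell under TMM and 1076 under total counts, and nothing is read from the counts of these lists. None of either list rose by edgeR on either scale. CCNB1, cyclin B1, was at 82.5, 81.0 and 109 CPM in DMSO and 30.7, 19.6 and 23.6 CPM in Sorafenib (-1.88, SE 0.25, BH-adjusted p in edgeR 2.88e-05). ASPM, a spindle protein (-1.69), and UHRF1, which maintains DNA methylation (-1.91), fell.

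Of 13 receptor kinase genes tested, including the co-receptor KLB, 4 fell and 0 rose (30.8% called). KLB, β-Klotho, which FGF19 and FGF21 need for signalling, went from 119.9, 104 and 94.0 CPM to 22.4, 8.44 and 13.1 CPM (-2.86, SE 0.41), ERBB3 fell by 1.54 and INSR, the insulin receptor, by 1.03. PDGFRB had 0 counts in Sorafenib and 4.0, 1.94 and 1.80 CPM in DMSO. Against the DMSO mean it was at least 4.45-fold lower, taking 3 counts in the shallowest Sorafenib library. Its call was lost in 6 of 6 fits without 1 library. Of 18 components of the RAS-RAF-MEK-ERK cascade, 1 fell (SOS1, -1.22), with a call lost in 3 of 6 fits without 1 library, and 0 rose. In the ERK output list 2 of 17 rose, MAFF (2.38) and PHLDA1 (0.75), and 0 fell under TMM, while under total counts 2 rose and 2 fell. Calls under TMM were 5.56% of the cascade and 11.8% of the ERK output list, beside 9.96% among all genes. In the list of gluconeogenesis and insulin response, 2 of 11 rose (SIK1 and FOXO1) and 3 fell (IGFBP1, IRS1 and TXNIP) under TMM.

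IGFBP1, a secreted binder of insulin-like growth factors that insulin represses, had the largest fall by the naming rule. It was at 550.3, 494 and 545 CPM in DMSO and 31.3, 40.5 and 63.0 CPM in Sorafenib (-3.55, SE 0.40, BH-adjusted p in edgeR 3.96e-06). In MC and M222 its DMSO means were 35.0 and 40.3 CPM, and it was not called (log2 fold change 0.16 and -0.49). The fall was thus seen only with miR-512-3p mimic, where the DMSO level was high. SIK1, a kinase that restrains CREB coactivators, had 0 counts in DMSO and 15.5, 17.6 and 6.42 CPM in Sorafenib. Its Sorafenib mean was at least 29.4-fold higher, though a near-identical copy of this gene makes its counts uncertain. Other large falls were EPPK1 (-3.45), an epithelial cytoskeletal linker, HS3ST3B1 (-3.17), a heparan sulfate sulfotransferase, CCDC142 (-3.02), the glutamate transporter SLC1A2 (-2.94), the carboxylate transporter SLC13A3 (-2.67) and MIXL1 (-2.65), a mesendoderm factor. The naming rule took only falls whose groups did not overlap, so the separation of these genes was set by that choice.

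In the remaining lists, hypoxia genes had 2 higher and 2 lower of 17, with VEGFA at 1.81 and NDRG1 at -1.57, and Wnt targets 1 higher and 3 lower of 10, with the feedback inhibitor AXIN2 at 2.02 and its fellow inhibitor DKK1 at -1.69. Autophagy and lysosome genes had 3 higher and 2 lower of 37 under TMM, and 2 and 3 under total counts. Under TMM MAP1LC3B (1.09) and SQSTM1 (0.96) were among the higher and CTSB (-0.93) among the lower. The glycolysis list had 1 lower of 20 (SLC2A2, the liver glucose transporter, -2.08). The microRNA machinery had 0 of 12 called under TMM and 1 lower under total counts. Among all genes 9.96% were called, and nothing is read from lists this short. The call of DKK1 was lost in 3 of 6 fits without 1 library. NDRG1 was not called in MC (-0.18) or M222 (-0.43), where its DMSO level was lower than in M512.

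**Figure D4:**
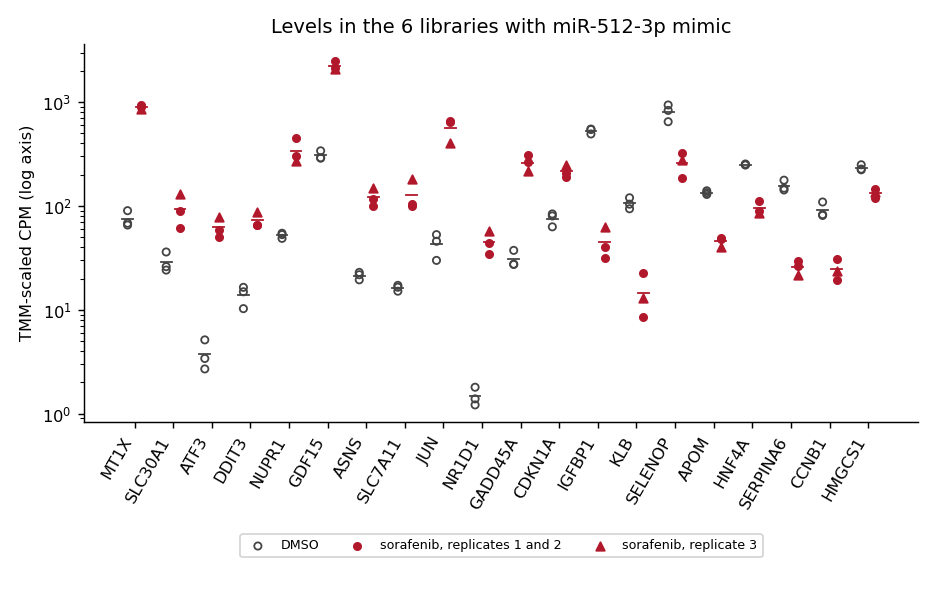
TMM-scaled CPM on a log axis for 20 of the genes described, in 3 DMSO libraries (open circles) and 3 Sorafenib libraries (red; triangle, replicate 3), with group means as bars. The groups do not overlap for any of the 20, which the naming rule required of the largest rises and falls. Replicate 3 is, for example, lowest of its group for JUN (402 CPM) and highest for SLC7A11 (180.2 CPM).

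The drug comparison was repeated with the other transfections to ask where the response with miR-512-3p mimic differed. Sorafenib called 344 genes in MC (2.6%) and 580 in M222 (4.38%), fewer than the 1319 with miR-512-3p mimic. The comparison in M512 was taken up for holding the most changes, so this order was known in advance. That choice also favours the larger sizes in M512 given below. The 3 comparisons share no library. The sizes of the changes differed less than the counts. Over all genes tested the median absolute log2 fold change was 0.48 in M512 and 0.41 in MC. Over the 373 genes that rose in M222, the median log2 fold change was 1.25 in M512 and 1.01 in MC, and 242 were larger in M512. The M222 contrast chose these genes, though all 18 libraries entered the filter and the estimate of spread. Over the 207 that fell in M222, the medians were -0.95 and -0.78, and 150 fell further in M512. Under total counts the medians were 1.05 and 0.90 for the rises and -1.16 and -0.88 for the falls. With the genes called in MC, the medians in M512 and M222 were 1.49 and 1.33 for 239 rises and -1.08 and -0.92 for 105 falls. Of the 707 genes higher in M512, 195 were called higher in MC and 256 in M222, of the 612 lower genes 75 and 112 were called lower, and 0 were called in the opposite direction in either.

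Set side by side, list medians were further from 0 in M512 for some lists and not for others. For metallothioneins the median was 3.26 in M512, 2.54 in MC and 2.52 in M222, and for the integrated stress response 2.09, 1.69 and 1.79. Immediate early genes had 1.69, 1.84 and 1.37, and cholesterol synthesis -0.61, -0.70 and -0.58. Cytosolic ribosomal proteins had 0.46, 0.27 and 0.18, with 16, 1 and 1 genes called higher. List differences were not tested.

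The difference between the drug effects was tested gene by gene. M512 minus MC gave 1 gene of 13244 (0.00755%; 667 at an unadjusted p under 0.05, and 15 with DESeq2), and M512 minus M222 gave 2 (0.0151%; 813 and 14). With a replicate block the second comparison gave 3 calls, and with a block within transfection 5. IGFBP1 was in both, with a difference of -3.71 (SE 0.53, BH-adjusted p in edgeR 0.00423) from MC and -3.06 (SE 0.53, adjusted p 0.0372) from M222. Its Sorafenib means were 44.9, 38.9 and 28.7 CPM in M512, MC and M222, while its DMSO means were 529.8, 35.0 and 40.3 CPM. SAMD11, a nuclear protein with a SAM domain, differed from M222 by 5.28 (SE 0.84, BH-adjusted p in edgeR 0.0194). It had at most 2 counts in each M512_DMSO library and 11.8, 17.6 and 12 CPM in M512_sorafenib, at least 30.8-fold higher by the mean. In M222 it was at 5.04, 5.77 and 9.68 CPM in DMSO and 13.5, 12.5 and 20.6 CPM in Sorafenib. Of 12 fits without 1 library, the difference from M222 lost its call in 8 for IGFBP1 (adjusted p up to 0.170, edgeR) and in 4 for SAMD11 (up to 0.120). For both genes the transfections lay apart in DMSO and close together in Sorafenib. NDRG1 and APOM, which did not pass the difference test (adjusted p 0.179 for both from MC, edgeR), had DMSO means of 115 and 135 CPM in M512 against 38.0 and 66.8 in MC, and Sorafenib means of 38.6 and 45.9 against 33.5 and 55.6. CCNB1, also not called (-1.75 from MC, adjusted p 0.132, edgeR), had DMSO means of 90.9 and 85.8 CPM in M512 and MC, and Sorafenib means of 24.6 and 78.5 CPM.

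**Figure D5:**
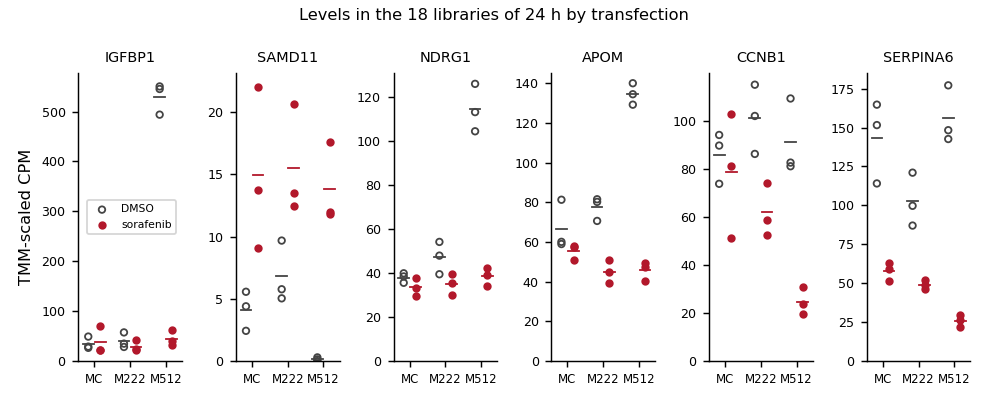
TMM-scaled CPM of IGFBP1, SAMD11, NDRG1, APOM, CCNB1 and SERPINA6 in each of the 18 libraries of 24 h, by transfection (MC, M222 and M512), with DMSO as open and Sorafenib as red circles and bars at the means. IGFBP1, NDRG1 and APOM are high in M512_DMSO and SAMD11 is near 0 there, while the Sorafenib points of these 4 genes are at like levels in all 3 transfections. CCNB1 and SERPINA6 are lowest in M512_sorafenib (24.6 and 25.7 CPM).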

How the data were processed

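RNA of HepG2 cells was sequenced as QuantSeq 3′ libraries, 1 tag near the 3′ end of a message. The authors aligned reads to GRCh38 with STAR and counted them with HTSeq, and the processing notes also name DRAGEN and DESeq2. The deposited values are raw counts per gene, with no normalization. The annotation release, strand setting and use of molecular identifiers are not given in the sources used here. Groups came from the sample labels. Of 60199 lines, 60107 were genes, 92 named no gene and were left out (3 counts in all), and 56104 gene IDs had a symbol.

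The 18 libraries of 24 h were fitted with edgeR 4.0.16 (R 4.3.3; quasi-likelihood F test, TMM, filterByExpr, Benjamini-Hochberg threshold 0.05), after a test on simulated data. The SE is the log2 fold change divided by the square root of F. Alternatives were total counts, DESeq2 1.42.0, no filter, the 6 libraries alone, a replicate block and each library left out.

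Members and gene lists were chosen with earlier results of these data known. Named genes were the 12 largest rises and 12 largest falls called on both scales, at a mean of at least 20 CPM, with groups that did not overlap; the 10 largest gains and losses of share; up to 5 called genes of each list by p, with members whose role is described; and genes called in a difference test, with the next ones by p. The drug-effect differences were contrasts of the same fit. Some genes that these rules name are not reported here.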

Additional observations from a re-analysis of the deposited data

Results flagged for a closer look

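IGFBP1 differed between transfections in its response to Sorafenib. The log2 fold change with miR-512-3p mimic minus that with the mimic control was -3.71, and minus that with miR-222-5p mimic -3.06, each past the test of the difference in edgeR. The second lost its call in 8 of 12 fits without 1 library. SAMD11 differed from the miR-222-5p transfection by 5.28 in the same test. Groups of 3 are too small for a test of single deviating libraries.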

How the results depend on the processing

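The 1319 calls with miR-512-3p mimic went to 761 to 1234 with 1 library left out, and under total counts, with 1 library left out, to 863 to 1557. The share higher was 53.6%, 30.04% under total counts, 33.9% with totals of nuclear genes, 59.0% with the 6 libraries alone and 32.2% with these under total counts. It was 52.8% to 60.4% with 1 library left out, and 30.9%, 29.5% and 29.4% under total counts without DMSO replicate 1, 2 and 3, and 33.5% without Sorafenib replicate 1, in a range of 24.2% to 35.9% over the 6 such fits. The difference from the mimic control had 1 call, 15 with DESeq2, 28 with no filter and 1 to 3 with 1 library left out. The difference from miR-222-5p had 2 calls, 14 with DESeq2, 38 with no filter and 0 to 2 with 1 library left out. The cause of these shifts was not tested. The fits with nuclear totals and those joining total counts with fewer libraries were chosen after seeing the data.

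Same-numbered DMSO and Sorafenib libraries correlated in their deviations at -0.05, 0.14 and 0.27 with miR-512-3p mimic. The values were 0.17, 0.07 and -0.20 with the mimic control and 0.17, 0.13 and 0.19 with miR-222-5p mimic. With 3 libraries a group they cannot show whether the numbers pair libraries, so the block is an alternative. Replicate 2 had the lowest total in each group of these other transfections (3941570 to 4939876 counts). A replicate block gave 1519 calls in the drug comparison, and 1414 within transfection. The block within transfection gave 5 calls for the difference from miR-222-5p.

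Depth limits low genes, since 1.07% of genes under 5 CPM were called. With 3 libraries a group, counts of calls rest on each of them.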
